A study of Arabidopsis thaliana with 8 samples.

Results

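GIS (GLABROUS INFLORESCENCE STEMS, AT3G58070) and SIM (SIAMESE, AT5G04470) are a pair of Arabidopsis thaliana genes that act in the formation of trichomes, the single-celled hairs of the shoot epidermis. They were taken by symbol from the platform's probe-to-gene table, which lists 1 probe set for each, 251586_at for GIS and 250844_at for SIM. They are thus 2 of the 22746 probe sets on the ATH1 array that are not controls. Both lay above the filter on dim probe sets and were among the 13648 tested. No sequence of the genes or probes was used here.

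Shoots of ga1-3, a mutant that makes too little gibberellin, were measured on all 8 arrays. It was in Ler. The plants were 8 days old, had grown on medium with 2% sucrose at 22 °C in continuous light, and were sprayed as whole seedlings with water (4 arrays) or with 2 µM GA4 (4 arrays) 1 h before the shoots were cut off. The labels call the replicates biological and number them 1 to 4 in each treatment. Wild-type and unsprayed shoots are not part of the comparison, and GA1, the gene named in the mutant, has no probe set named here, so the genotype was not checked on the arrays.

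Gibberellin promotes trichome formation in Arabidopsis, and ga1-3 plants make few trichomes until the hormone is supplied. The hormone binds GID1 receptors, which leads to the breakdown of DELLA repressor proteins. GIS is a C2H2 zinc finger protein that acts downstream of gibberellin and upstream of the MYB and bHLH proteins that start a trichome. SIM is an inhibitor of cyclin-dependent kinases. It stops mitosis in the young trichome, so that the cell goes on to copy its DNA without dividing, which is called endoreduplication. Trichomes of sim mutants divide and become multicellular.

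One hour after the spray, the GIS signal was higher on the GA4 array than on the water array of the same number in 4 of 4 replicates, and the SIM signal was lower in 4 of 4. The mean difference was 0.60 on the log2 scale for GIS, which is 1.52-fold higher, and −0.43 for SIM, which is 1.35-fold lower. Neither difference passed the threshold of 0.05 for the adjusted p over all tested probe sets, with or without the replicate number as a block. A 4 of 4 pattern was common on these arrays: 9.64% of the tested probe sets were higher in GA4 in every replicate number and 10% were lower.

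The deposited MAS5 signal of GIS in arbitrary linear units was 322, 274, 237 and 161 on water replicates 1 to 4. On GA4 replicates 1 to 4 it was 499, 487, 304 and 243. The GA4 arrays of replicates 1 and 2 had the highest GIS signals and water replicate 4 the lowest, and the treatments overlapped because GA4 replicates 3 and 4 lay below water replicate 1. Ranges that did not overlap and were higher in GA4 were seen for 0.894% of the tested probe sets. On the log2 scale GIS was at 7.91 ± 0.43 in water and 8.52 ± 0.51 in GA4 (mean ± SD, n = 4 each). Over all 8 arrays its mean lay 1.43 log2 units above the filter level of 6.78.

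Taken by replicate number, the GIS difference (GA4 minus water) was 0.63, 0.83, 0.36 and 0.59 on the log2 scale for replicates 1 to 4. These correspond to 1.55, 1.78, 1.29 and 1.51-fold. The SD of the 4 differences was 0.19, whereas the SD among arrays of 1 treatment was 0.43 to 0.51. The spread between replicates of a treatment was thus close in size to the difference, and the spread of the differences by number was smaller than it.

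Without a block, limma gave GIS a standard error of 0.30 and a 95% interval of −0.06 to 1.27 (unadjusted p = 0.0704, adjusted p = 1.00). With the replicate number as a block the standard error was 0.15 and the 95% interval 0.28 to 0.93 (unadjusted p = 0.00189, adjusted p = 0.148). In the fit without a block 2 probe sets passed the threshold (0.0147%), 0 higher and 2 lower in GA4. In the fit with the block 40 passed (0.293%), 5 higher (0.0366%) and 35 lower (0.256%). There were 171 probe sets with a smaller p than GIS in the blocked fit. A difference at least as high as that of GIS was seen for 149 probe sets (1.09%), and 99 of them were higher in GA4 in every replicate number.

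**Figure D1:**
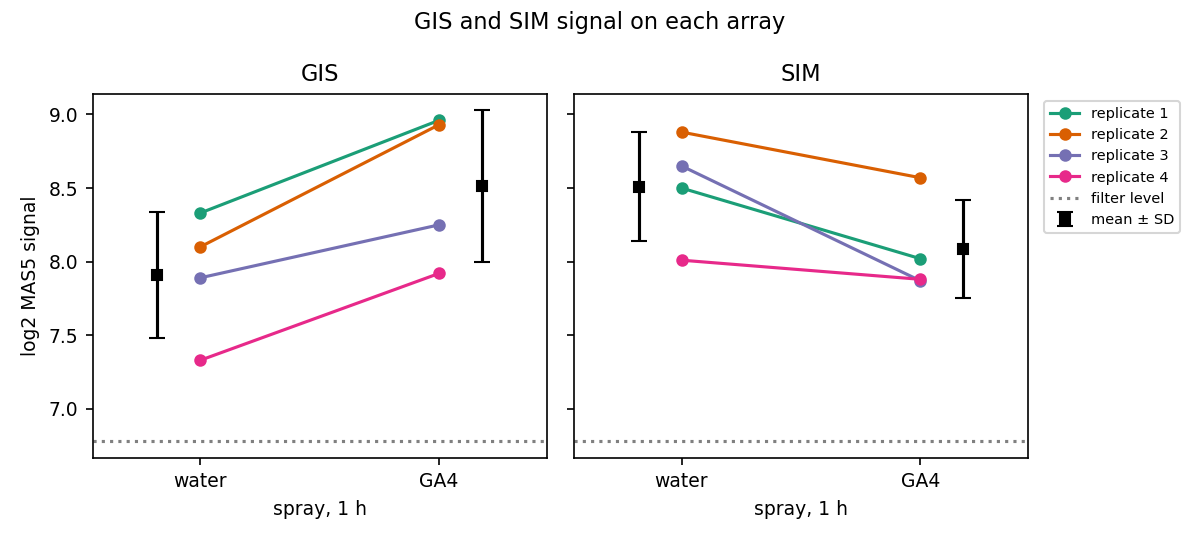
Log2 MAS5 signal of GIS (left) and SIM (right) on each of the 8 arrays, with lines joining the water and GA4 arrays of the same replicate number; black squares and bars are the mean ± SD of 4 arrays, and the dotted line is the filter level of 6.78. Every GIS line goes up and every SIM line goes down, while the water and GA4 ranges overlap for both genes.

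The SIM signal was 361, 473, 401 and 259 units on water replicates 1 to 4. On GA4 replicates 1 to 4 it was 259, 379, 233 and 235 units. Water replicate 2 had the highest SIM signal and GA4 replicate 3 the lowest. The treatments overlapped, since water replicate 4 lay at the level of GA4 replicate 1 and below GA4 replicate 2. Ranges that did not overlap and were lower in GA4 were seen for 1.39% of the tested probe sets. On the log2 scale SIM was at 8.51 ± 0.37 in water and 8.08 ± 0.33 in GA4 (mean ± SD, n = 4 each), and its mean over all arrays lay 1.51 log2 units above the filter level.

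By replicate number the SIM difference was −0.48, −0.32, −0.78 and −0.14 on the log2 scale, which is 0.719, 0.802, 0.582 and 0.909 times the water signal. Replicate 3 had the largest of these differences and replicate 4 the smallest. Their SD was 0.27. Without a block the standard error was 0.24 and the 95% interval −0.97 to 0.11 (limma, unadjusted p = 0.106, adjusted p = 1.00). With the block these were 0.15 and −0.77 to −0.09 (unadjusted p = 0.0182, adjusted p = 0.325). A difference at least as low as that of SIM was seen for 668 probe sets (4.89%), of which 422 were lower in GA4 in every replicate number. The count for GIS was taken at a larger difference, so the counts for GIS and SIM do not compare the directions.

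An exact permutation test over the 8 arrays, 2-sided, gave p = 0.171 for GIS and p = 0.143 for SIM, where the smallest p that 4 against 4 arrays allow is 0.0286. An exact permutation of the signs of the 4 differences by number gave p = 0.125 for each gene, which is the smallest p that 4 pairs allow, so that test could not reach 0.05. In these shoot samples fewer cells of a type and less RNA per cell cannot be told apart.

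In both treatments, replicates 1 and 2 differed as arrays from replicates 3 and 4. Median signals were 203 to 223 and 163 to 173, and actin probe sets at the 3′ end over those at the 5′ end, a measure of RNA quality and labelling, gave a ratio of 2.72 to 6.81 and 1.5 to 1.76. A ratio of this kind for GAPDH, from a different family of control probe sets than the actin ratio, was 2.13 to 5.43 and 0.958 to 1.14. The array has a second pair of control probe sets for each of these transcripts, whose ratios overlapped between the sets (3.67 to 13.6 and 3.03 to 5.63 for actin).

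The GIS level differed between these sets of arrays by more than it differed between treatments. Its mean log2 signal was 8.58 on replicates 1 and 2 and 7.85 on replicates 3 and 4, a difference of 0.73. The SIM means were 8.49 and 8.10, a difference of 0.39, close in size to its difference between treatments. The median of the same difference over all tested probe sets was 0.14, and 13.9% of them had a difference at least as high as that of GIS. As each set held 2 arrays of each treatment, the difference between treatments could be taken within each set.

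Within replicates 1 and 2 the GIS difference between GA4 and water was 0.73, and within replicates 3 and 4 it was 0.48. For SIM the values were −0.40 and −0.46. The interaction term in limma (effect on replicates 3 and 4 minus effect on replicates 1 and 2) was −0.25 for GIS (unadjusted p = 0.476, adjusted p = 0.901) and −0.06 for SIM (unadjusted p = 0.876, adjusted p = 0.983). No probe set passed this test (0 of 13648), and 957 (7.01%) had an unadjusted p under 0.05. Each set had only 2 arrays per treatment, so an equal effect in both is not shown. With the sets as a block in place of the replicate number, the adjusted p was 0.268 for GIS and 0.544 for SIM.

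Within replicate numbers, no ratio of control probe sets moved the same way with GA4 in every one. Most ratios were higher with GA4 in most replicates. The actin ratio that separated the sets was higher with GA4 than with water in replicate 1 (6.81 and 5.07), replicate 2 (4.48 and 2.72) and replicate 3 (1.58 and 1.5), and lower in replicate 4 (1.68 and 1.76). The second actin ratio was lower with GA4 in replicate 1 (6.41 and 13.6), replicate 3 (4.88 and 5.63) and replicate 4 (3.03 and 3.15), and higher in replicate 2 (5.34 and 3.67). The GAPDH ratio that separated the sets was higher with GA4 in replicates 1 (3.5 and 2.25) and 2 (5.43 and 2.13). In replicate 3 it was slightly higher (0.98 and 0.958) and in replicate 4 slightly lower (1.1 and 1.14). The second GAPDH ratio was lower with GA4 in replicate 1 (1.17 and 1.19) and higher in replicates 2 to 4. The part of these ratios in the GIS and SIM differences was not tested.

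Pairing by number reduced the residual SD of GIS from 0.473 to 0.135 log2 units and that of SIM from 0.349 to 0.193. The median over all tested probe sets went from 0.342 to 0.201. GIS thus had a larger residual SD than the median probe set without the block and a smaller one with it. In the blocked fit 25.2% of the tested probe sets had a residual SD below that of GIS and 47.1% below that of SIM.

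The other genes of trichome formation and of the cell cycle that could be followed were few. The 7 lists hold 123 loci. Of these, 19 could be matched to a probe set, and 12, with GIS and SIM among them, were tested. None of the 12 passed in either fit, where 0.0147% and 0.293% of all tested probe sets did. At an unadjusted p under 0.05 there was 1 of the 12 without the block and 5 with it, or 1 and 3 of the 10 other than GIS and SIM, against 2.65% and 11.8% of all tested probe sets. Of the 12, 6 were higher and 6 lower in GA4, and the median difference over all tested probe sets was 0.01. The lists of KRP inhibitors (7 loci), of cyclins and cyclin-dependent kinases (31) and of endoreduplication control (23) had no named probe set, so the kinases and cyclins that SIM acts on were not followed.

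Among 15 C2H2 zinc finger genes of the GIS type, 5 could be matched and 2 of them tested. NUB (NUBBIN), which acts with JAG (JAGGED) in the growth of lateral organs, was at −0.26 (standard error 0.25 with the block, adjusted p = 0.707). Its log2 signal was 7.20, 7.62, 7.34 and 7.44 on water replicates 1 to 4 and 7.85, 7.13, 6.66 and 6.94 on GA4 replicates 1 to 4. NUB was thus higher in GA4 in replicate 1 and lower in the other 3 replicates, unlike GIS. JAG, RBE (RABBIT EARS, a petal regulator) and AT1G68360, which the list gives as GIS3, were too dim to pass the filter, and their values may be background.

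Of 22 genes of the trichome initiation complex and its inhibitors, 2 had a named probe set. ATMYC1, a bHLH protein that takes part in starting trichomes with MYB partners, was at −0.46 (standard error 0.16 with the block, adjusted p = 0.303). Its log2 signal was 9.23, 9.45, 8.38 and 8.52 on water replicates 1 to 4. On GA4 replicates 1 to 4 it was 9.29, 8.84, 7.66 and 7.93. The value in GA4 was lower in 3 of 4 replicates, with replicate 1 as the exception. TRY (TRIPTYCHON), a small MYB protein that keeps neighbouring cells from becoming trichomes, lay below the filter, with log2 signals of 2.19 to 6.68.

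The 6 tested genes of trichome branching and shape had a median difference of 0.00 and ran from −0.10 to 0.29. AT5G06700, which carries the synonym TRICHOME BIREFRINGENCE and is needed for normal cellulose in trichome walls, was at 0.29 (standard error 0.12 with the block, adjusted p = 0.380), and was higher in GA4 in 4 of 4 replicates. SPK1 (SPIKE1), which activates ROP GTPases, was at 0.18 (standard error 0.14, adjusted p = 0.627) and was also higher in 4 of 4. CRK (CROOKED), a subunit of the actin-nucleating ARP2/3 complex, was at −0.10, and AN (ANGUSTIFOLIA), which sets branch number, was at −0.06. For these last 2 genes the adjusted p with the block was 0.845 and 0.897.

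In the list of SIAMESE-related inhibitors, 6 of 10 loci could be matched and 3 of them tested. SIM was lower in GA4 in every replicate number, whereas the other 2 were higher in every one. AT5G59360 was at 0.83 (standard error 0.20 with the block, adjusted p = 0.147). Its log2 signal was 7.32, 7.24, 6.44 and 6.91 on water replicates 1 to 4 and 8.54, 8.16, 7.32 and 7.24 on GA4 replicates 1 to 4. As 6.44 is under the filter level of 6.78, the size of its difference is uncertain. AT5G02420 was at 0.44 (standard error 0.23, adjusted p = 0.472), and its log2 signal went from 7.16 to 8.10, from 7.16 to 7.67, from 6.63 to 6.83 and from 6.27 to 6.40 in replicates 1 to 4, with water given first. Of these values 6.63, 6.27 and 6.40 are under the filter level, so this size is uncertain too. The gene table used here gives no name for these 2 loci.

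As a scale for these differences, the genes of gibberellin signalling that passed in the blocked fit differed by more. They were named for passing and as genes known to fall, so a larger difference follows from that choice. The receptor genes GID1A and GID1B fell by 1.61 and 1.44 on the log2 scale (adjusted p = 0.00929 and 0.0419 with the block). The GID1B difference was −0.87 within replicates 1 and 2 and −2.01 within replicates 3 and 4 (limma interaction, adjusted p = 0.683). XERICO, which encodes a RING protein that raises abscisic acid levels, fell by 1.58 (adjusted p = 0.00236 with the block). In the fit without the block none of these 3 passed (adjusted p = 0.0856, 1.00 and 0.121). The SLY1 gene, whose F-box product marks DELLA proteins for breakdown, was at −0.65 (adjusted p = 0.212 with the block), a difference closer in size to those of GIS and SIM. In this list 6 of 17 loci were tested, and the median difference was −1.04. Of the 6, 3 passed in the blocked fit, all lower in GA4, where 0.256% of all tested probe sets passed as lower. The differences of the 6 ran from −1.61 to −0.05. The GID1B values of 6.77 and 6.70 on GA4 replicates 1 and 2 were under the filter level, which makes its size uncertain.

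**Figure D2:**
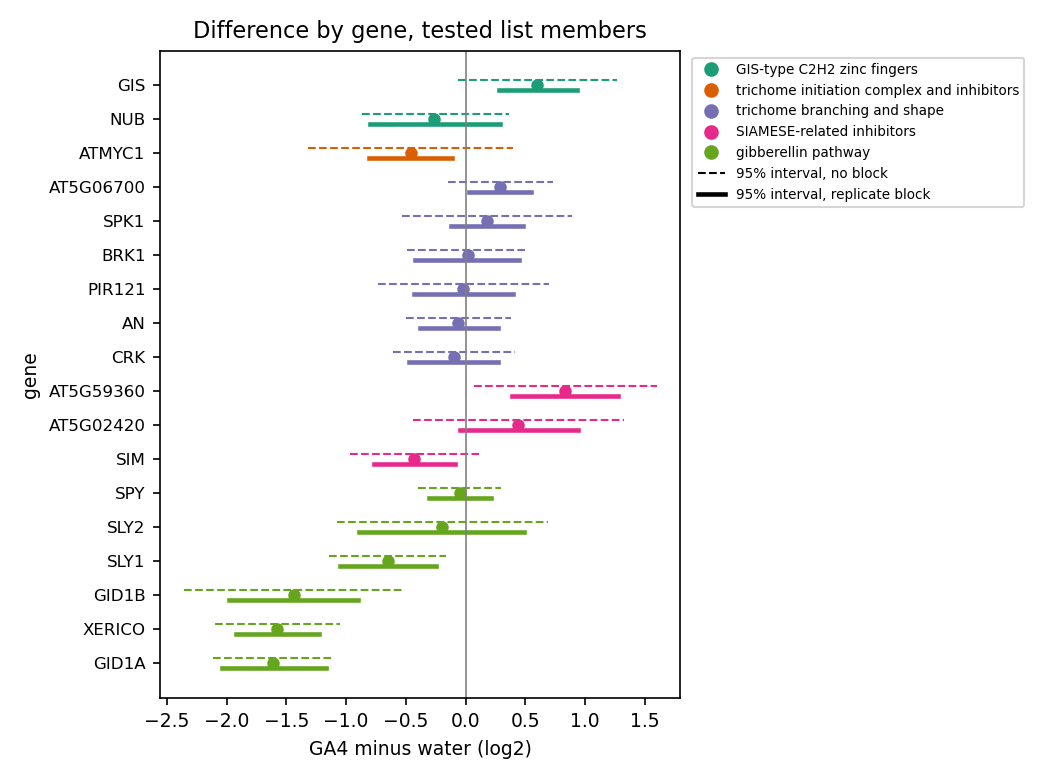
Difference between GA4 and water on the log2 scale for each tested gene of the lists (points, n = 4 arrays per treatment), with the 95% interval from limma without a block (dashed) and with the replicate block (solid). GIS at 0.60 and AT5G59360 at 0.83 lie highest, SIM lies at −0.43, and GID1A, XERICO and GID1B lie lowest.

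Markers of other cell types could be followed to a small extent. FMA, the RefSeq symbol for FAMA, a bHLH regulator of guard cells, was the only one above the filter among the 4 marker genes with a named probe set, and was at 0.11 (standard error 0.20 with the block, adjusted p = 0.855). The root hair genes EXPA7 and EXPA18 had log2 signals of 5.70 to 6.98 and 3.56 to 6.99, and their means lay below the filter. The shoot apex gene CLV3 was at 2.06 to 3.56. The leaf, epidermis and phloem markers chosen had no named probe set, so the amount of epidermis in each sample was not measured, and its part in the GIS and SIM values was not tested.

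The probe sets whose course over the 8 arrays was closest to that of GIS were found by the root mean square distance between log2 signals, each taken relative to its own mean. Among 7336 other tested probe sets with 1 gene, the median distance to GIS was 0.529 log2 units. The closest was HMT-1, a homocysteine methyltransferase, at 0.138. Its log2 signal was 8.36, 7.92, 7.85 and 7.30 on water replicates 1 to 4 and 8.59, 8.63, 7.96 and 7.81 on GA4 replicates 1 to 4, so it followed GIS in the higher level of replicates 1 and 2 as well as in the higher GA4 value of each replicate. AT5G38690 (0.146), AT3G45210 (0.150), LUL4, a RING-type ubiquitin ligase (0.153), and AT1G49470 (0.164) came next. The differences between GA4 and water of these 5 genes were 0.39 to 0.72, and none passed in the blocked fit (smallest adjusted p = 0.0871, for AT1G49470). They were picked on these same 8 arrays, so their likeness to GIS in treatment difference and in level by replicate follows from that choice.

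For SIM the median distance was 0.465 log2 units over the same number of probe sets. The closest was AT1G44760 at 0.129, with a log2 signal of 9.59, 9.94, 9.45 and 9.09 on water replicates 1 to 4 and 8.74, 9.52, 8.74 and 8.89 on GA4 replicates 1 to 4. Like SIM it was highest on water replicate 2 and lower in GA4 in each replicate. AT3G15220 (0.141), AT1G55090 (0.161), AT1G06000 (0.162) and AT4G17900 (0.170) followed. Their differences between treatments ran from −0.55 to −0.30, and none passed in the blocked fit (smallest adjusted p = 0.163, for AT1G44760). The arrays share the split between replicates 1 and 2 and replicates 3 and 4, which enters every one of these distances. The difference between GA4 and water enters them too, so a like direction and size follow from how the genes were picked.

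**Figure D3:**
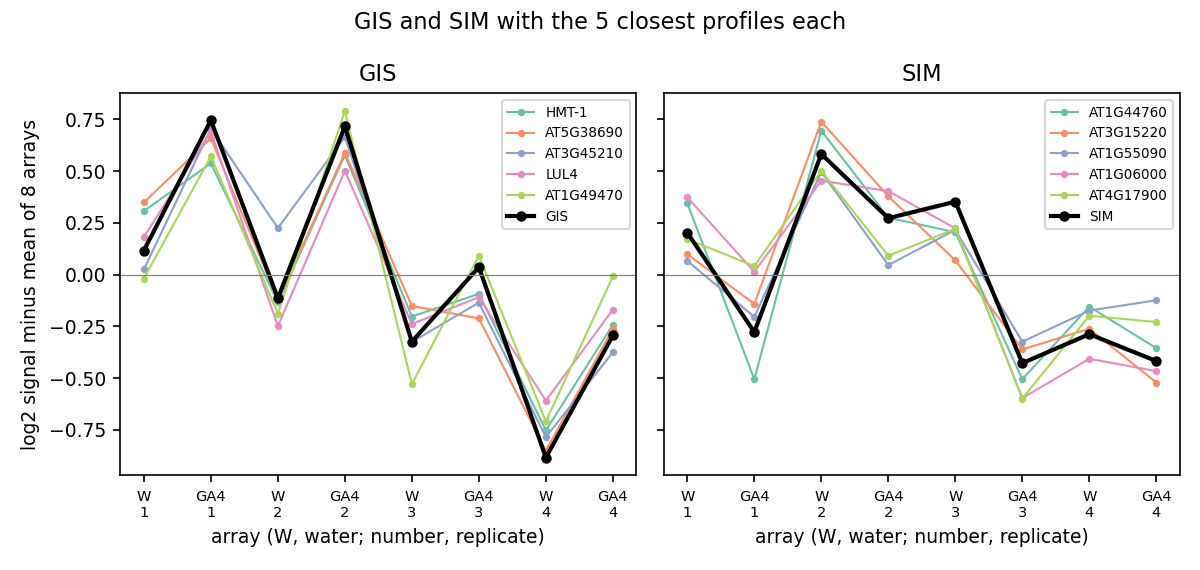
Log2 signal of GIS (left) and SIM (right) in black and of the 5 probe sets with the smallest root mean square distance to each (colours), minus the mean of the 8 arrays, ordered by replicate number with water before GA4. For GIS and its 5 neighbours, which were picked on these same arrays, the GA4 point lies above the water point in every replicate, except for AT5G38690 in replicate 3. The means of GIS and SIM are lower over replicates 3 and 4 than over replicates 1 and 2.

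The size of the differences moved with single arrays in the fit without a block. Leaving out 1 array at a time gave 0.41 to 0.80 for GIS and −0.59 to −0.30 for SIM. GIS was lowest without water replicate 4 and highest without GA4 replicate 4, the arrays of its lowest values in each treatment. With the block, leaving out 1 replicate number at a time gave 0.53 to 0.68 for GIS and −0.53 to −0.31 for SIM. Array weights, which give less influence to arrays that fit the rest less well, gave a GIS difference of 0.39 (standard error 0.23, limma adjusted p = 0.997). With the same weights the SIM difference was −0.49 (standard error 0.19, limma adjusted p = 0.779), larger in size than without weights.

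**Figure D4:**
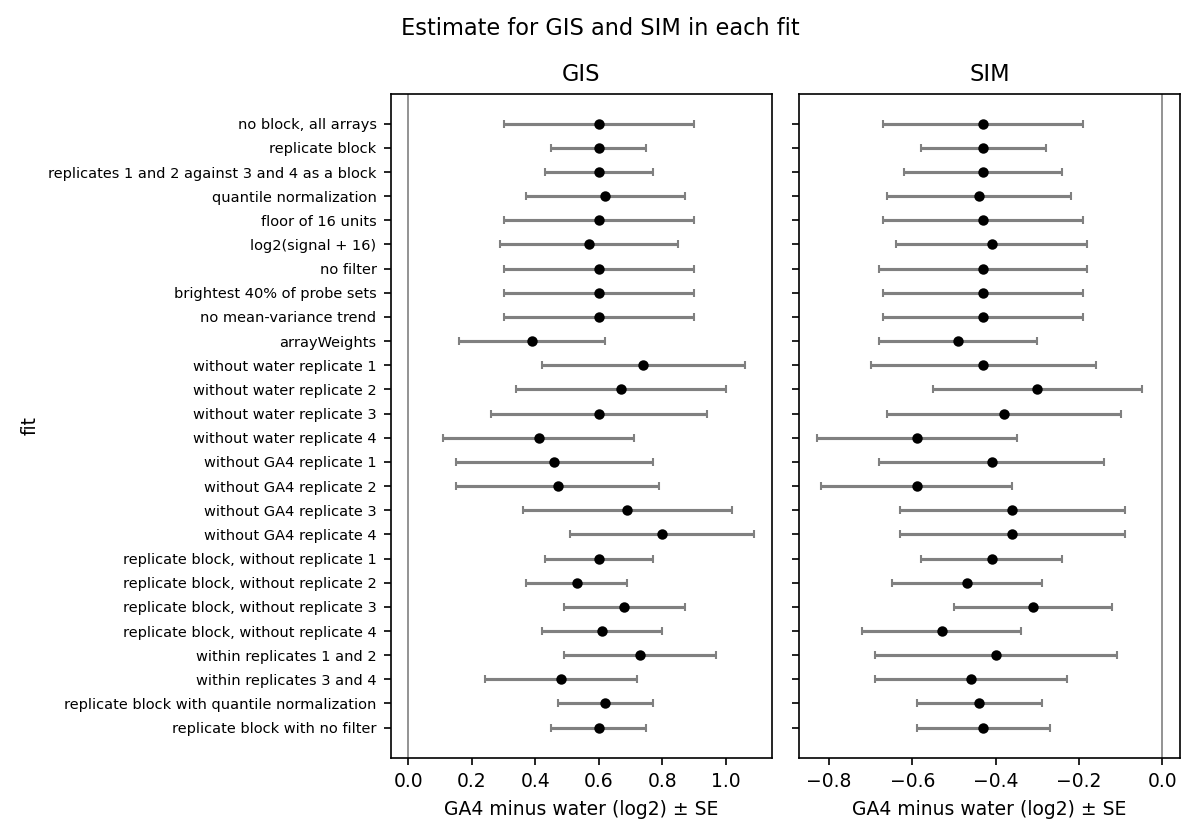
Difference between GA4 and water on the log2 scale (points) with its standard error (bars) for GIS (left) and SIM (right) in each fit tried; "no block, all arrays" is the planned fit. All points lie above 0 for GIS (0.39 to 0.80) and below 0 for SIM (−0.59 to −0.30).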

How the data were processed

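RNA from 8 shoot samples was hybridised to ATH1 arrays. For each array the deposited table gives linear signal intensities made with MAS5, per the submitters' processing notes, which give no version. The 2%-trimmed means were 500.04 to 500.05, so no rescaling was applied. The 64 control probe sets were left out, signals below 1 (707 of 182480 values) were set to 1, and log2 was taken. The brightest 60% by mean log2 signal were tested (13648 probe sets, mean signal of at least 110 units). Genes were named from the platform annotation, updated through the TAIR10.1 gene table. Of the 22746 probe sets, 13513 had 1 gene, 503 several and 8730 none listed. Array positions carry no build, so none are given.

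GA4 and water were compared with limma 3.58.1 in R 4.3.3 (lmFit, eBayes with trend, 2-sided, Benjamini-Hochberg adjustment over 13648, threshold 0.05). The planned fit had no block. Same-numbered arrays correlated at 0.616 to 0.685 in their deviations from group means, above the minimum of 0.1 for calling them paired, so a fit with that number as a block is given beside it. The best match of each water array among GA4 arrays of another number was 0.367 to 0.599, and the labels do not say what a number marks or whether samples came from separate cultures, so p-values measure the spread between these samples. The code was tested on simulated data with known changes. A log2 change of 1 was recovered for 10 of 100 probe sets without the block and for 66 with it. For a change of 2 these were 76 and 93. Changes as small as those of GIS and SIM were not simulated, so their missed calls do not show that they were unchanged. The alternatives were another normalization, floor, filter, variance model, block, array weights and leaving out arrays.

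The members and the 14 lists were chosen with earlier results of these data known. Named genes are every list member past the threshold and the 4 tested members with the largest difference per list, plus the 5 closest profiles per member. Marker genes with a probe set are named as well. JAG, RBE, AT1G68360 and TRY, below the filter, fall outside this rule and were chosen after their values were seen. Precision is limited by having 4 arrays per group.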

Additional observations from a re-analysis of the deposited data

How the results depend on the processing

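GIS stayed higher and SIM lower in GA4 in all 25 other fits of each, and neither passed the threshold in any (adjusted p 0.148 to 1.00 for GIS and 0.294 to 1.00 for SIM). Leaving out 1 array gave 0.41 to 0.80 for GIS and −0.59 to −0.30 for SIM. Of these fits, 2 were chosen after seeing the data, the replicate block with quantile normalization (GIS 0.62, SIM −0.44) and with no filter (0.60 and −0.43). The replicate block changed no call of the 12 tested trichome and cell cycle genes, but moved the number of probe sets past the threshold from 2 to 40. That number was 32 with replicates 1 and 2 against 3 and 4 as a block, 1 with no filter, 1 with the brightest 40% of probe sets and 8 with array weights. It was 1 within replicates 1 and 2 and 9 within replicates 3 and 4. It was 1 without any 1 array and 8 to 53 with the replicate block and without 1 replicate number (14, 8, 53 and 43 without replicates 1 to 4). Fits without an array have fewer samples, and the cause of the other changes was not tested. No detection calls were used, so genes below the filter could not be told from background.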
